A study of Mus musculus with 10 samples.

Results

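Zinc finger genes were followed as one group through 3' end sequencing of mouse mammary tumour cells. Members were all genes whose symbol starts with Zfp, Zbtb, Zfx, Zfhx, Zmi, Zmy, Zc3h, Zcchc or Zkscan and for which the authors' deposited tables list a changed intronic polyadenylation (IPA) site. There were 16 such genes of 1453, with 26 distinct sites of 2074. No gene starting with Zbtb, Zfx, Zfhx or Zmi was listed, so the group holds no BTB gene known by a Zbtb symbol. The prefix Zfp contributed 10 genes with 20 sites, Zc3h and Zcchc 2 genes with 2 sites each, and Zkscan and Zmy 1 gene with 1 site each.

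The study compared 10 libraries in 5 groups of 2. The lines 67NR and 168FARN are labelled non-invasive and the lines 4T07 and 4T1 invasive, and all 4 are cultured mammary tumour lines of mouse. The group 4T1-U1-ASO is 4T1 treated with an antisense morpholino that targets U1, a small nuclear RNA, and with a delivery reagent, and its control is the 4T1 group, which the series design calls mock-transfected and whose own labels give no treatment. The dose of the morpholino and the time of exposure are not given in the sources used here, and U1 lacks a poly(A) tail and so was not read by this assay. Whether the pair of libraries in each group stems from separate cultures is not stated in the labels. P-values therefore reflect nothing beyond library-to-library spread, possibly of technical origin. In bulk RNA, fewer cells of a type and less RNA per cell cannot be told apart.

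Polyadenylation inside an intron ends a transcript before its last exon and can leave a shorter mRNA that lacks the 3' part of the coding sequence. U1 binds 5' splice sites and also protects nascent transcripts from cleavage at poly(A) signals in introns. Zinc finger proteins of the C2H2 type bind DNA through arrays of fingers that are commonly encoded together near the 3' end of the gene. CCCH and CCHC fingers mostly bind RNA, and the MYND finger binds other proteins.

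Whole reads were recovered from the normalized signals of the tables, and usage is the IPA share, in percent, of a library's reads at the site and last exon together. Sites of the same gene share their last-exon reads and are not independent. The peak lists held 1427728 to 3347776 reads per library, and the lowest value belongs to 67NR replicate 2, whose list covers 10 chromosomes. Each list runs through the chromosomes in 2 blocks that no header names. The second is read here as intronic because 806 to 1405 listed sites had a peak in it in the 9 lists other than that of 67NR replicate 2, against 57 to 71 in the first, which is read as last exons. The second block held 19.4% and 19.2% of the reads of the 4T1-U1-ASO lists, against 12.2% and 12.5% for 4T1. Of the marker genes for cell types, 1 of 10 epithelial and 2 of 10 mesenchymal genes were listed between 4T1-U1-ASO and 4T1, and 0 of 3 leukocyte and 0 of 2 endothelial genes, so most marker levels could not be read. For the epithelial cadherin gene Cdh1, last-exon reads numbered 1305 and 1370 in 4T1-U1-ASO against 800 and 952 in 4T1. Scaled by the authors, these Cdh1 signals overlapped, at 1041 and 1080 against 1109 and 985. For the mesenchymal filament gene Vim, reads numbered 3017 and 2772 against 12512 and 13028, and the scaled signals were 2407 and 2186 against 17340 and 13475. Last-exon reads of Fn1, the other listed mesenchymal gene, numbered 1895 and 2028 against 2080 and 2551. Its scaled signals were 1512 and 1599 against 2883 and 2639. The part of these differences in the results on zinc finger genes was not tested.

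After U1 was targeted, 23 sites in 13 zinc finger genes differed in the authors' deposited table, 21 with higher and 2 with lower use of the intronic site relative to the last exon. Over all 1561 listed sites, 87.6% were higher and 12.4% lower. Both lower sites lie in Zfp451, a SUMO ligase. The median deposited log2 change of the higher sites was 2.0, against 1.93 over all higher sites. Mean usage reached 10% or more in 4T1-U1-ASO at 10 of the 23 sites, against 28.8% of all listed sites. The usage values of both groups did not overlap at any of the 23 sites, as at 99.9% of all listed sites. Being listed by the authors rests on the same contrast, so these counts are a description of the selected sites.

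**Figure D1:**
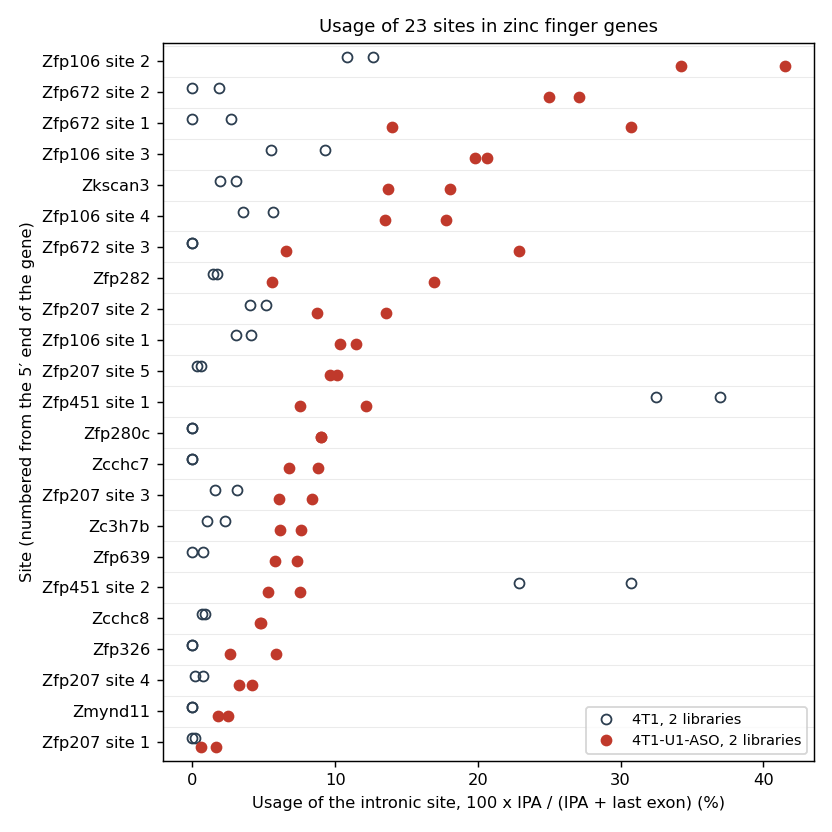
Usage of each of the 23 intronic sites in zinc finger genes (horizontal axis, % of IPA and last-exon reads) in the 2 libraries of 4T1-U1-ASO (filled) and of 4T1 (open). Sites are ordered by mean usage in 4T1-U1-ASO. At 21 sites the filled points lie to the right of the open ones, and at the 2 Zfp451 sites to the left.

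3 genes carried several sites that were all used more in 4T1-U1-ASO. Zfp207, Zfp106 and Zfp672 make up 3 of 13 genes with 3 or more listed sites, while 8.49% of all 1131 listed genes had as many. Together they hold 12 of the 23 sites.

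Zfp207 encodes a microtubule-binding protein that helps kinetochores load the checkpoint protein Bub3. Its 5 sites lie on chromosome 11, plus strand, within 17144 bp (mm9). The first site is chr11:80200639-80200919, the second chr11:80201127-80201445 and the third chr11:80207808-80208726. Site 4 is chr11:80215256-80215475 and site 5 chr11:80217352-80217782. The table attaches protein-coding and noncoding RefSeq transcripts to the first 3 sites and noncoding transcripts alone to the last 2. The last exon gathered 479 and 480 reads in 4T1-U1-ASO against 527 and 677 in 4T1.

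At site 5 there were 51 and 54 reads in 4T1-U1-ASO and 3 and 2 in 4T1. Usage was therefore 9.87% ± 0.35 (SD, n = 2) against 0.430% ± 0.192. The deposited log2 change, 3.94 ± 0.56 (SE), was the highest among the zinc finger sites. Site 4 had 21 and 16 reads against 1 and 5. At site 5 the peak list of 4T1-U1-ASO replicate 1 holds 51 reads and that of replicate 2 no peak. At site 4 the list of replicate 2 holds 16 reads and that of replicate 1 no peak. Neither 4T1 list holds a peak at these sites. Site 3 had 31 and 44 reads against 17 and 11. At site 2 the counts were 75 and 46 against 22 and 37. The first site was thinly covered, with 8 and 3 reads against 0 and 1. These are raw reads. At site 2 the signals scaled by the authors overlapped between the groups, at 59.8 and 36.3 against 30.5 and 38.3. Summed over the 5 sites, usage was 26.7% ± 1.85 in 4T1-U1-ASO and 7.59% ± 0.07 in 4T1. Most of the intronic 4T1 reads in this sum come from site 2, where neither 4T1 list holds a peak and the 67NR lists hold 22 and 37 reads. Without site 2, summed usage was 19.2% ± 0.55 against 3.28% ± 0.78.

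The peak lists show where the Zfp207 last-exon reads fall. The lists hold reads of the same libraries as the tables, so they are not independent of how the genes were chosen. These last-exon reads form a proximal cluster at chr11:80208888-80209880 and a distal pair of clusters at chr11:80218138-80218609 and chr11:80218936-80219449. In all 4 libraries the sum of these peaks equals the last-exon reads of the table. The first 3 sites lie upstream of the proximal cluster, sites 1 and 2 by 7969 and 7443 bp and site 3 directly before it, and sites 4 and 5 lie between the proximal and distal clusters. The proximal cluster held 409 and 429 reads in 4T1-U1-ASO and 527 and 659 in 4T1. The distal clusters held 70 and 51 reads in 4T1-U1-ASO and 0 and 18 in 4T1.

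The distal share of last-exon reads was thus 14.6% (95% Clopper-Pearson interval 11.6 to 18.1) and 10.6% (8.01 to 13.7) in 4T1-U1-ASO. It was 0 of 527 reads in 4T1 replicate 1, which by a limit of 3 reads allows up to 0.569%, and 2.66% (1.58 to 4.17) in replicate 2. In 168FARN it was 0.821% and 0.545%, in 4T07 2.01% and 2.12%, and in 67NR 1.64% and 4.17%. Both 4T1-U1-ASO libraries lie above the other 8. Sites 4 and 5 were listed on this same contrast. With them added, the reads beyond the proximal cluster made up 25.8% and 22.0% in 4T1-U1-ASO and 0.753% and 3.65% in 4T1. The means were 23.9% ± 2.67 against 2.2% ± 2.05 (n = 2 each), which describes selected sites. With 2 libraries against 2, an exact permutation test cannot go below p = 0.33, so no test was made. Such intervals and limits cover counting error only, since the reads carry no molecular identifiers.

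**Figure D2:**
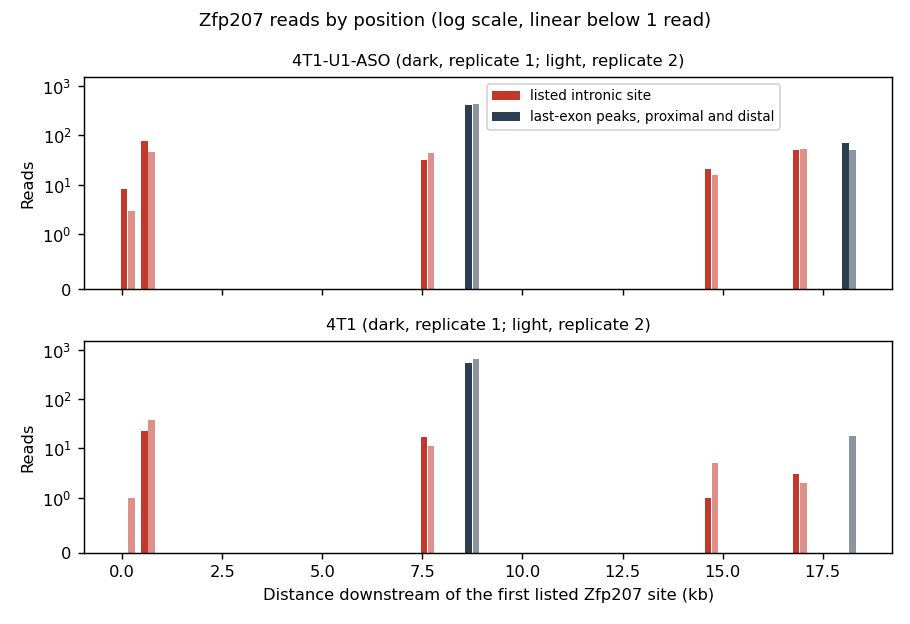
Reads at the 5 listed Zfp207 sites (red) and at the proximal and distal last-exon clusters (dark) against the distance in kb from the first site, for 4T1-U1-ASO (top) and 4T1 (bottom), on a log axis that is linear below 1 read. The distal clusters hold 70 and 51 reads in 4T1-U1-ASO against 0 and 18 in 4T1, while the proximal cluster holds 409 and 429 against 527 and 659.

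Zfp106 encodes an RNA-binding protein needed for motor neurons and muscle. Its 4 sites lie on chromosome 2, minus strand, over 25144 bp, and all were used more in 4T1-U1-ASO. The second, chr2:120365045-120365231, had the highest usage of the zinc finger sites in 4T1-U1-ASO. It held 115 and 90 reads against 17 and 23 in 4T1. No list of 4T1-U1-ASO or 4T1 has a peak at this site, while that of 168FARN replicate 2 has 45 reads there. Usage per library was 41.5% and 34.2% against 12.7% and 10.8%, a mean of 37.9% ± 5.16 (SD, n = 2) against 11.8% ± 1.30. The third site, chr2:120359140-120359757, was used at 20.2% ± 0.59 against 7.40% ± 2.69. The fourth, chr2:120356188-120356272, was used at 15.6% ± 3.02 against 4.61% ± 1.47, and the first, chr2:120380964-120381331, at 10.9% ± 0.79 against 3.59% ± 0.72. Summed over the 4 sites, usage was 53.9% ± 3.75 in 4T1-U1-ASO and 22.9% ± 4.27 in 4T1, the highest summed usage of any of the 13 genes in 4T1-U1-ASO. In 4T1 itself each Zfp106 site had a mean usage of 3.59% or more.

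Zfp672, a C2H2 gene, had 3 sites on chromosome 11, minus strand, within 2825 bp. At chr11:58141216-58141464 there were 12 and 7 reads in 4T1-U1-ASO and 1 and 0 in 4T1. At chr11:58140651-58140824 there were 9 and 16 against 0 and 1. At chr11:58138640-58138761 there were 8 and 3 against 0 and 0, and 0 among 88 reads in 4T1 allows a usage of up to 3.41%. Coverage of Zfp672 was low. Its last exon gathered 27 and 43 reads after U1 targeting against 36 and 52 in 4T1, and usage spread widely between libraries. Summed usage was 44.7% ± 9.97 (n = 2) against 2.29% ± 0.58. The last exon was placed from the peak lists 7757, 7192 and 5181 bp downstream of the 3 sites, in the order given.

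The DNA-binding and chromatin genes with 1 site each were Zkscan3, Zfp639, Zfp282, Zfp280c and Zmynd11. Zkscan3, a repressor of autophagy and lysosome genes, had 33 and 26 reads at chr13:21484785-21485352 in 4T1-U1-ASO and 1 and 2 in 4T1. Its last exon had 150 and 164 reads against 51 and 64, so both counts were higher in both 4T1-U1-ASO libraries. Usage was 15.9% ± 3.07 against 2.48% ± 0.78 (n = 2). Zfp639, a C2H2 transcription factor, had 18 and 14 reads against 1 and 0 at chr3:32416789-32417366. Its usage was 6.54% ± 1.1 against 0.362% ± 0.512, and its last exon lies 1553 bp downstream.

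Zfp282, a C2H2 repressor, had 4 and 11 reads against 1 and 1 at chr6:47838262-47838466. Its usage of 11.2% ± 8.04 had an SD close to the mean. Zfp280c, a C2H2 gene at chrX:45931637-45931739, had 7 and 9 reads against 0 and 0. Zmynd11, which binds methylated histone H3 and restrains transcript elongation, had 8 and 10 reads against 0 and 0 at chr13:9692719-9693159. Its usage was low in 4T1-U1-ASO, at 2.13% ± 0.49, with 441 and 393 last-exon reads against 89 and 213.

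The genes of RNA processing were Zcchc7, Zcchc8, Zfp326 and Zc3h7b. Zcchc7 belongs to a nuclear complex that marks RNA for the exosome, and at chr4:44930788-44931384 it had 14 and 23 reads in 4T1-U1-ASO against 0 and 0 in 4T1. Its usage was 7.79% ± 1.45, and 0 among 81 reads in 4T1 allows up to 3.70%. Zcchc8 is the scaffold of another complex that targets RNA to the exosome. It had 8 and 7 reads against 1 and 1 at chr5:124159109-124159490, 8419 bp upstream of its last exon.

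Zfp326 is part of a complex that couples transcript elongation to splicing. At chr5:106337636-106337805 it had 4 and 10 reads against 0 and 0. Zc3h7b, an RNA-binding CCCH protein, had 11 and 8 reads against 4 and 2 at chr15:81575568-81575779, 49717 bp upstream of its last exon. No peak list of 4T1-U1-ASO or 4T1 holds a peak at this Zc3h7b site, while that of 4T07 replicate 1 holds 11 reads. In all 4 genes the measured mean usage of the intronic site was below 8% in 4T1-U1-ASO. In all, 5 of the 21 higher sites (Zfp672 site 3, Zfp280c, Zfp326, Zcchc7 and Zmynd11) had no read in either 4T1 library, against 15% of all higher sites. The limit that 0 reads allow in 4T1 was 4.35% for Zfp280c, 1.39% for Zfp326 and 0.993% for Zmynd11.

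Zfp451 moved the other way. Its first site, chr1:33854520-33854939 on the minus strand, had 15 and 10 reads in 4T1-U1-ASO against 13 and 37 in 4T1. Its second site, chr1:33848976-33849338, had 6 and 10 against 8 and 28. Last-exon reads were 108 and 123 in 4T1-U1-ASO against 27 and 63 in 4T1, with no overlap. Usage of the first site was 9.86% ± 3.31 (SD, n = 2) in 4T1-U1-ASO and 34.8% ± 3.18 in 4T1. Usage of the second was 6.39% ± 1.59 against 26.8% ± 5.59. These are raw reads, and the intronic ones overlap between the groups. Scaled by the authors, the signals did not overlap: they were 12 and 7.88 against 18.0 and 38.3 at the first site and 4.79 and 7.88 against 11.1 and 29.0 at the second. Both 4T1 libraries were above both 4T1-U1-ASO libraries at each site, and 4T1 replicate 2 was the highest.

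To see which side of the ratio differed, IPA reads and last-exon reads were tested apart with edgeR's quasi-likelihood test, with Benjamini-Hochberg adjustment over all listed sites or genes. IPA reads rose at 18 of the 23 zinc finger sites, against 57.1% of all listed sites. They fell at 2, both in Zfp451, against 12.1%. The rise was 3.76 log2 units at site 5 of Zfp207 (adjusted p = 9.52e-08), 1.77 at site 2 of Zfp106 (1.54e-05), 3.63 for Zkscan3 (1.15e-05) and 4.17 for Zfp639 (1.41e-04). The 3 higher sites that did not pass were site 2 (0.47, adjusted p = 0.208) and site 3 (0.82, 0.0721) of Zfp207 and the site of Zc3h7b (1.05, 0.166). With TMM (trimmed mean of M values) scaling, and with scaling by the first block of the lists, 21 of the 23 sites rose, these 3 included. Over all listed sites 1200 rose and 146 fell with TMM and 1236 and 140 with the list scaling, in place of 891 and 189. At the Zfp451 sites the change was -1.54 (adjusted p = 0.00282) and -1.71 (0.00353). The test covers sites the authors had already selected on these libraries, so the calls are not independent evidence. Leaving out 4T1-U1-ASO replicate 1 or 2, or 4T1 replicate 1 or 2, gave 9, 8, 12 and 9 rises in place of 18. Without 4T1 replicate 2 neither Zfp451 site passed, and without either 4T1-U1-ASO library 1 did.

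Last-exon reads rose in 4 of the 13 genes, namely Zcchc7, Zmynd11, Zkscan3 and Zfp451, against 9.37% of all 1131 listed genes. The rise was 1.88 log2 units for Zcchc7 (adjusted p = 0.00422), 0.93 for Zmynd11 (0.0163), 0.86 for Zkscan3 (0.0126) and 0.81 for Zfp451 (0.0472). In Zcchc7, Zmynd11 and Zkscan3, reads at the intronic site and in the last exon were therefore both higher in 4T1-U1-ASO. Last-exon reads fell in 3 genes, Zc3h7b (-1.09, adjusted p = 0.00332), Zfp207 (-0.91, 0.00270) and Zfp672 (-0.90, 0.0338), against 54.9% of all listed genes. The median change over the 13 genes was -0.10 and over all listed genes -0.66.

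These falls depend on the scaling of the libraries, which shifts all genes together. With the authors' size factors the median last-exon change of all listed genes was -0.66. With TMM scaling it was -0.06, and with scaling by the first block of the lists 0.06. Under both, 5 of the 13 genes rose, the same 4 and Zfp280c, and 0 fell. Over all genes, 253 rose and 304 fell with TMM, and 221 rose and 225 fell with the list scaling, in place of 106 and 621. The rise of Zcchc7 passed in all 8 settings tried. That of Zmynd11 was lost without 4T1-U1-ASO replicate 1, that of Zkscan3 without either 4T1-U1-ASO library, and that of Zfp451 without either 4T1-U1-ASO library or without 4T1 replicate 1. The 2 libraries of 4T1 differ widely in raw last-exon reads of Zmynd11 (89 and 213), Zcchc7 (18 and 63) and Zfp326 (50 and 166).

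**Figure D3:**
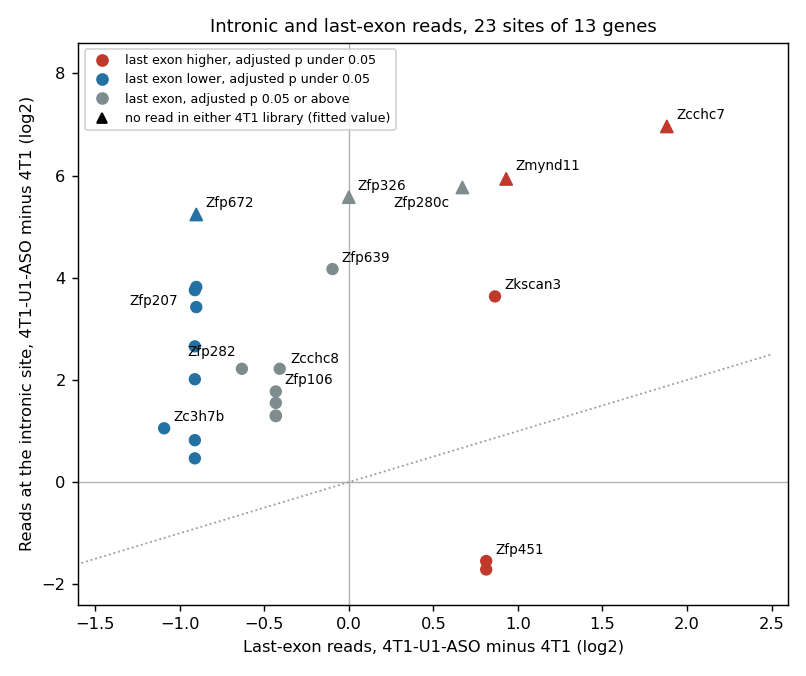
Log2 change between 4T1-U1-ASO and 4T1 in last-exon reads (horizontal axis) and in reads at the intronic site (vertical axis) for the 23 sites of 13 zinc finger genes, with the authors' size factors; the dotted line marks equal change. Colour gives the last-exon call at an adjusted p of 0.05, and triangles mark the 5 sites without a 4T1 read, whose height depends on the prior count of the fit.

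The test of IPA relative to the last exon called all 23 sites, as it called every listed site in every comparison, since the authors had selected on the same ratio. With 4T1-U1-ASO replicate 1 left out, 19 sites passed and the first and second sites of Zfp207, Zc3h7b and the first site of Zfp106 did not. With 4T1 replicate 2 left out, 19 passed, and Zmynd11, Zcchc7, Zfp326 and Zfp280c did not. Without 4T1-U1-ASO replicate 2, 22 passed, and Zfp282 did not.

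Between the lines, few zinc finger genes were listed, and every listed site was used less in the invasive line. There were 2 of 122 listed sites for 4T1 against 67NR, 1 of 214 for 4T07 against 67NR, 0 of 85 for 4T1 against 168FARN and 1 of 329 for 4T07 against 168FARN. Lower sites made up 76.2%, 82.2%, 75.3% and 79.6% of all listed sites in these comparisons. Usage did not overlap between the lines in any of these 4 entries, as at 99.2%, 100% and 99.4% of all listed sites of the 3 comparisons concerned. None of the 3 genes was listed after U1 was targeted. Of the cell type markers, 0 of 10 epithelial, 0 of 3 leukocyte and 0 of 2 endothelial genes were listed between lines, and 2 of 10 mesenchymal genes. Last-exon reads of the mesenchymal regulator gene Twist2 numbered 2 and 0 in 4T1 and 0 and 0 in 4T07, against 74 and 54 in 67NR and 309 and 293 in 168FARN, and the matrix gene Sparc had 6833 and 7185 in 4T07 against 17022 and 15108 in 67NR. Their part in the results below was not tested.

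Zfp444, a C2H2 protein with a SCAN domain, was listed in both comparisons against 67NR at chr7:6125582-6126280, plus strand. Both 67NR libraries were high, with 31 and 36 reads. The libraries of 4T1 gave 2 and 2 reads and those of 4T07 gave 10 and 7. Last-exon reads were 124 and 97 in 67NR, 79 and 50 in 4T1 and 180 and 199 in 4T07. Usage was 23.5% ± 5.00 (SD, n = 2) in 67NR, 3.16% ± 0.97 in 4T1 and 4.33% ± 1.32 in 4T07. Both comparisons share the 67NR libraries. The deposited log2 change was -1.73 ± 0.53 (SE, the authors' adjusted p = 0.057) for 4T1 and -2.09 ± 0.47 (0.001) for 4T07.

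By edgeR's quasi-likelihood test, IPA reads of Zfp444 fell in both, by 3.66 log2 units in 4T1 (adjusted p = 1.33e-04) and by 1.77 in 4T07 (3.48e-05). Such falls were called at 66.4% and 73.8% of all listed sites. Last-exon reads of Zfp444 rose in 4T07 by 0.97 log2 units (adjusted p = 0.00180, 40.5% of listed genes called higher). In 4T1 they changed by -0.42 (adjusted p = 0.277), and without 4T1 replicate 1 a fall passed.

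Zc3h12a, an endoribonuclease that degrades inflammatory mRNAs, was listed for 4T1 against 67NR at chr4:124803605-124803907, minus strand. The 4T1 libraries gave 2 and 1 reads, the 67NR libraries 8 and 5, with last-exon reads of 93 and 99 against 32 and 22. Usage was 1.55% ± 0.78 (SD, n = 2) against 19.3% ± 1.05. The last-exon reads rose by 2.16 log2 units (edgeR, adjusted p = 7.41e-07, against 37.6% of listed genes called higher), while the IPA reads changed by -1.71 without passing (adjusted p = 0.0537). The authors' adjusted p for the ratio was 0.052.

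Zfp746, a repressor of the mitochondrial regulator gene Ppargc1a, was listed for 4T07 against 168FARN at chr6:48016116-48016528, minus strand, 1513 bp upstream of its last exon. It had 14 and 16 reads in 4T07 and 57 and 40 in 168FARN, with last-exon reads of 106 and 106 against 100 and 105. Usage was 12.4% ± 1.02 (SD, n = 2) against 31.9% ± 6.17. IPA reads fell by 1.63 log2 units (edgeR, adjusted p = 7.11e-06, against 58.4% of listed sites), and the last-exon change was 0.11 (adjusted p = 0.527). At this gene a change was thus called in the intronic reads alone. Zfp444, Zc3h12a and Zfp746 were listed by the authors on these same libraries, so their edgeR calls are not independent evidence.

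**Figure D4:**
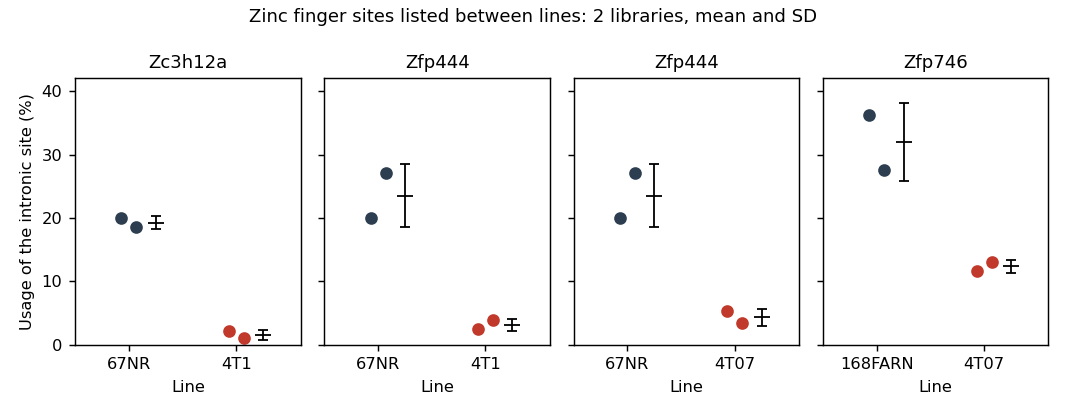
Usage of the intronic site (%) in each of the 2 libraries per line for the zinc finger sites listed between lines, with mean and SD beside the points. In each panel both libraries of the non-invasive line, at 18.5% or more, lie above both of the invasive line, at 13.1% or less.

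The peak lists gave reads for libraries outside the tables. A list that lacks a peak is no zero: of 74 cases in which a library had 3 or more reads at a zinc finger site by its table, its own list held a peak in 51, and the reads were equal in 48 of these. For Zfp444 the lists hold only fringes of the site, so they were not used. The 5 higher sites without a 4T1 read were picked by that absence, so their absence from the 4T1 lists adds nothing. Among them, peaks at Zcchc7, Zmynd11, Zfp326 and Zfp280c were found in lists of 4T1-U1-ASO and in no other list. However, 7 lists do not cover chromosome X, where Zfp280c lies. The list of 67NR replicate 2 does not cover chromosomes 4 and 5, where Zcchc7 and Zfp326 lie. The remaining one, Zfp672 site 3, also had a peak in both 67NR lists, with 1 and 2 reads. Zfp672 site 2 had 9 reads in the list of 67NR replicate 2, a usage of 14.5%, and no peak in that of replicate 1. Other higher sites also had peaks in lists of other lines. Zcchc8 had 3 reads in 168FARN replicate 2, 4 in 4T07 replicate 2 and 3 in 67NR replicate 1. Zfp639 had 1 read in each list of 168FARN and 4T07. Zfp106 site 3 had a peak in every list that covers chromosome 2.

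At Zfp451 every one of the 10 lists has a peak at both sites. At the second site usage was 40.4% ± 2.92 (SD, n = 2) in 67NR, 35.0% ± 8.40 in 4T07, 26.8% ± 5.59 in 4T1, 13.5% ± 0.64 in 168FARN and 6.41% ± 1.56 in 4T1-U1-ASO. The ranges of neighbours in this order overlapped for 67NR and 4T07 and for 4T07 and 4T1, but not for 4T1 and 168FARN or 168FARN and 4T1-U1-ASO. At the first site usage was 41.5% ± 4.53 in 67NR, 34.8% ± 3.18 in 4T1, 32.0% ± 9.94 in 4T07, 19.9% ± 8.47 in 168FARN and 9.91% ± 3.38 in 4T1-U1-ASO. There the values of 4T1 and 4T07 and of 4T07 and 168FARN overlapped. At the first site the peaks of both 168FARN libraries, of 67NR replicate 1 and of 4T1-U1-ASO replicate 2 cover under 50% of the site, as do those of both 4T1-U1-ASO libraries at the second. 168FARN had the lowest mean of the 4 lines at both sites, and no 168FARN comparison of the authors lists Zfp451.

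For Zfp746 the lists gave 20.8% (95% Clopper-Pearson interval 13.5 to 29.7) in 4T1 replicate 1. In 67NR replicate 1 usage was 4.46% (1.47 to 10.1), the lowest of the libraries with a peak. It rests on 5 reads in a peak that covers under 50% of the site. In 4T1-U1-ASO usage was 13.4% ± 4.13 (n = 2). The 168FARN libraries, at 36.3% and 27.6%, were the highest of the libraries with a peak at the site.

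**Figure D5:**
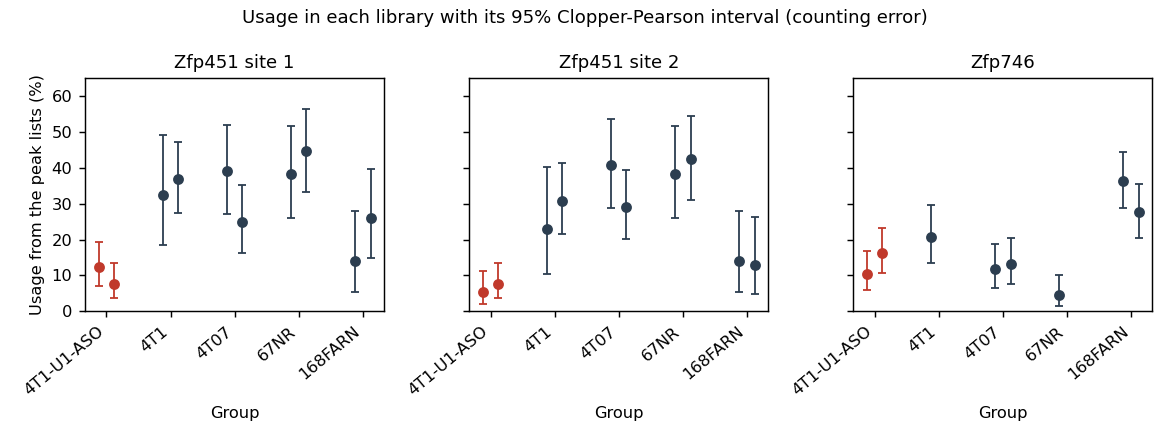
Usage of both Zfp451 sites and of the Zfp746 site (%) computed from the peak lists in each library that has a peak, with 95% Clopper-Pearson intervals. For Zfp451 both 4T1-U1-ASO libraries, between 5.31% and 12.3%, lie below every other library, and for Zfp746 both 168FARN libraries lie above every other library shown. Peaks that cover under 50% of the site underlie the 67NR point at Zfp746 and both 4T1-U1-ASO points at the second Zfp451 site. At the first Zfp451 site they underlie the points of 4T1-U1-ASO replicate 2, both 168FARN libraries and 67NR replicate 1.

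Genes of related function under other names were counted in the same tables. Of 15 partners of KRAB and other repressors, 3 were listed after U1 was targeted, with 5 sites, all higher in 4T1-U1-ASO, near the 87.6% of all listed sites that were higher. They were the histone deacetylase gene Hdac2 (33.1% ± 0.28 against 14.9% ± 0.42, n = 2), the heterochromatin gene Cbx1 with 3 sites and the remodeller gene Chd4. Of 56 genes, mostly C2H2 and BTB regulators with other names, 2 were listed, and both were lower, against 12.4% of all listed sites. Usage at Klf3 was 2.10% ± 0.53 against 8.48% ± 2.44 and at Vezf1 1.19% ± 0.48 against 4.79% ± 0.06. Of 25 CCCH and CCHC genes with other names, the splicing factor genes Mbnl2 and U2af1 had a higher site and Unk a lower one. Of the 4 Pias genes, Pias2 had a higher site.

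Between the lines, 75.3% to 82.2% of all listed sites were lower in the invasive line, depending on the comparison. Among the sites of these related genes, 9 were lower and 7 higher, where a site counts once per comparison that lists it. All 7 higher ones are in the C2H2 gene Trps1, which was listed in all 4 comparisons. At its second site usage was 26.8% ± 1.19 in 4T07 and 21.2% ± 7.34 in 4T1 against 0.412% ± 0.583 in 67NR (n = 2 each), with 0 and 0 reads in 168FARN. In the same list of 56 genes, the histone methyltransferase gene Ehmt1 was lower in 4T07 against both 67NR and 168FARN. Klf3, Prdm2 and Vezf1 were lower in 4T07 against 168FARN. The CCCH gene Mkrn1 was lower in both comparisons against 67NR, with 2.13% ± 3.01 in 4T1 and 0.476% ± 0.673 in 4T07 against 47.0% ± 7.32 in 67NR. Unk and Pias2 were lower in 4T07 against 168FARN. No KRAB or repressor partner was listed between the lines.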

How the data were processed

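The authors deposited a filtered peak list for each library, in which each peak has a read count, and per comparison a table of IPA sites. Per the file headers, the tables give a normalized read signal for each site and last exon, a log2 fold change and its error, a score (the test statistic) and raw and adjusted p-values, the latter at most 0.1. Tools named in the submitters' processing notes, with no step attached, are DESeq2 1.4.5, bedtools 2.17.0, SAMtools 1.1 and Bowtie2 2.2.5, and the build is mm9. The sources used here do not say what the list filter removed. Signs were turned so that a change is the invasive line or 4T1-U1-ASO minus the other group. Per the labels' protocols, poly(A)+ RNA from 5 µg of total RNA was primed with anchored oligo-dT and amplified by 13 PCR cycles, so read numbers include PCR copies and internal priming at A-rich introns cannot be told apart from 3' ends.

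The signals are multiples of the value of 1 read, and 100% of values came out whole within 0.1 read. Tests on them used edgeR 4.0.16 under R 4.3.3 (quasi-likelihood test, scaling by the size factors that the value of 1 read implies, Benjamini-Hochberg adjusted p under 0.05, no filter on low reads), over all listed sites of a comparison, with one row per gene for last exons. In simulated reads for the 1561 sites of the U1 comparison, the dispersion was fixed at 0.05 and most sites were left unchanged. There 84.8% of 99 changes of 3 log2 units and 40.6% of 101 of 2 were called, with 7 calls among 1361 unchanged sites. The real sites were all preselected as changed, so these rates do not describe the calls made on them. Library columns were matched to lists: where a library had 3 or more reads at a listed site and its own list a peak, reads were equal at 80.0% to 95.5% of sites, against at most 7.76% for the other replicate and 10.4% for other groups. The last exon was placed, from last-exon peaks whose reads equal the table's, for 9 of the 16 genes.

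The members and gene lists were chosen with earlier results of these data known. Named sites are all sites listed between lines, and for U1 the 8 highest log2 changes, the 8 highest usages, every lower site and genes with 3 or more sites; the other genes are given as well, which adds names beyond that rule. Alternatives were TMM, at least 10 IPA reads, DESeq2 1.42.0, replicate and library blocks, each library left out in turn, lower limits on the deposited adjusted p and a larger peak overlap. Those for IPA and last-exon reads apart were chosen after seeing the data. All 16 symbols are current in the RefSeq gene table of GRCm38.p6, used for names only, and positions are 1-based on mm9. Sites are intronic on the authors' word, and their sequences were not used here.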

Additional observations from a re-analysis of the deposited data

How the results depend on the processing

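The test of IPA relative to the last exon called the same number of zinc finger sites with TMM scaling, with at least 10 IPA reads, with DESeq2, with a library block and with a replicate block (23, 2, 1 and 1 sites in the U1 and line comparisons that list any), and leaving out 1 library gave 19 to 23 for U1 and no change between lines. Of 243 site values under these alternatives, 9 lost the call, with adjusted p from 0.0611 to 0.195 (edgeR), and 0 reversed. At the authors' adjusted p of at most 0.05, 15 of 23 sites stayed for U1 and 0 of 2 for 4T1 against 67NR, and at 0.01 the counts were 5, 0 and, for 4T07 against 168FARN, 0 of 1. For IPA reads alone in U1, leaving out 1 library gave 8 to 12 rises and 0 to 2 falls in place of 18 and 2, and list scaling gave 1 fall. For last-exon reads alone, it gave 1 to 6 rises and 0 to 5 falls in place of 4 and 3, and falls numbered 0 with TMM and 0 with list scaling. For 4T1 against 67NR it gave 0 to 1 falls of last-exon reads in place of 0. Same-numbered libraries correlated weakly over the listed sites (from -0.029 to 0.148), and the labels do not say whether replicate numbers pair the libraries. The replicate block gave 13 rises of IPA reads in place of 18 and the same last-exon counts, 4 and 3. Peaks of the lines outside the table overlapped sites 46 times at 1 bp and 26 times at 50% of the site. At 4 to 11 IPA reads per 4T1-U1-ASO library, as for Zfp326, Zfp282 or Zcchc8, depth limits precision, and a site with 0 reads in 4T1 may still be used there up to the limits given.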

Other observations

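The table gives the second Zfp207 site 22 and 37 reads in 4T1, while neither 4T1 list holds a peak there. The 67NR lists hold 22 and 37 reads at the same site. At the third site the 67NR lists hold 19 and 28 reads and the 4T1 columns 17 and 11, which equal the 4T1 lists.

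Between the outermost Zfp106 sites the lists also hold peaks that the tables do not list. They sum to 144 reads in 4T1-U1-ASO replicate 2, 99 in 168FARN replicate 1 and 86 in 67NR replicate 1, against 0 to 7 in the other libraries, among them 1 in 4T1-U1-ASO replicate 1. The list of 67NR replicate 2 does not cover chromosome 2. That of 4T1-U1-ASO replicate 2 has no peak at Zfp106 sites 1, 2 and 4, where the table gives 20, 90 and 27 reads. Whether its 3 unlisted peaks belong to these sites was not tested.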
